A study of Mus musculus with 8 samples.

Results

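The insulin-like growth factor (IGF) axis was examined in livers of Eps8KO mice, through the genes of its ligands, receptors and binding proteins. Genes were taken by symbol: Igf1 and Igf2, the receptors Igf1r and Igf2r, Igfals and Igfbp1 to Igfbp7. Of these 12 genes, 9 had a named spot, among 8789 named genes on the array, and all 9 were tested, among 8214 named genes tested. They were Igfbp1, Igfbp2, Igfbp3, Igfbp4, Igfbp6, Igfals, Igf2, Igf1r and Igf2r. Igf1, Igfbp5 and Igfbp7 were not analysed here.

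IGFs circulate bound to binding proteins, which prolong their life in blood and limit their access to receptors. The liver is the main source of circulating IGF1 and of the acid labile subunit, the product of Igfals, which joins IGF and IGFBP3 or IGFBP5 in a large complex. Hepatocytes also secrete IGFBP1, whose transcription is known to be repressed by insulin and to be induced by fasting, glucocorticoids and cell stress. IGF1R is a tyrosine kinase receptor that is scarce on adult hepatocytes, and IGF2R clears IGF2 and carries lysosomal enzymes.

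Eps8KO (EPS8 -/-) mice lack the actin remodeler Eps8 in every cell, on a C57BL/6 background. Livers were taken from 4 male Eps8KO mice, 17 weeks old, and their RNA was set against a pool of liver RNA from male WT mice of the same age. A dye swap was made for every Eps8KO mouse, with its RNA in Cy5 on 1 cDNA array and in Cy3 on another, so there were 8 arrays. The list of animals gives 5 WT mice for the pool, and other fields of the labels give other numbers. Mice had free access to food, and the feeding state at liver collection is not given in the sources used here.

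Values are log2 ratios of Eps8KO over the WT pool, averaged over the 2 arrays of a mouse, so a value of 0 is the level of the pool. Errors after ± are SDs over the 4 mice unless named otherwise. That the deposited ratios are Cy5 over Cy3 was taken as likely, from the dyes in the labels and the convention of the software. The file does not state it, and the other direction would turn every sign. The pool is 1 control sample, so no spread between WT mice was measured, and a change in Eps8KO livers cannot be told apart from a peculiarity of the pool. Ratios give no levels, so the liver identity of the samples could not be read from marker levels, and fewer cells of a type cannot be told apart from less RNA per cell. Each array held 17968 to 18802 values for 20355 spots, and no spot was named Eps8. Means of 2 mice correlated across all features with r from -0.05 to 0.04, so this measure showed almost no pattern shared by the mice. Each array held 48 to 103 values at its highest reading, and such extreme values can weigh heavily on r.

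Spots were named by adding 32 to the row number of a value, since row numbers and probe numbers do not match directly, a shift that came from the values themselves. For 114 probes of hepatocyte, housekeeping and ribosomal genes, the mean rank of noise between arrays was 0.424 with these names, against 0.492 with no shift. Of 2000 other shifts, 1 gave a mean rank as low. The naming is therefore not settled, and each value below belongs to the named gene only if this shift is right.

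The promoters of Igfbp1 and Igfbp6 are shown because these 2 genes had the smallest p among the 9. Both run from 250 bases before to 50 bases after the start site, 5′ to 3′ on the coding strand, from RefSeq on GRCm38.p6. Igfbp1 lies at chr11:7197537-7197836 on the plus strand and Igfbp6 at chr15:102143936-102144235 on the plus strand. Capitals mark AAACA, the core bound by forkhead factors such as FOXO1 and FOXA2, and GTTAAT, a motif of HNF1 factors, each on either strand.
Igfbp1: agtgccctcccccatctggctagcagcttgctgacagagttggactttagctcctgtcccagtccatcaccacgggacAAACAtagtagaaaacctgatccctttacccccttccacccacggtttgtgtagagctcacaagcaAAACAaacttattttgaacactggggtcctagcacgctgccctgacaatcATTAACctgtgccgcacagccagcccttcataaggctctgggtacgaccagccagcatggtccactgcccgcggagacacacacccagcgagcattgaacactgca
Igfbp6: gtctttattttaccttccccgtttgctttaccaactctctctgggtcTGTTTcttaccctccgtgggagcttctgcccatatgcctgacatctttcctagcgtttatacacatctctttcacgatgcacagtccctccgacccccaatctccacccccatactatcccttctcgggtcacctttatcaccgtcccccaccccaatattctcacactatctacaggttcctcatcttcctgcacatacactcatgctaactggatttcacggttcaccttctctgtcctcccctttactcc

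The Igfbp1 promoter held 2 copies of AAACA and 1 of GTTAAT, read on the minus strand as ATTAAC in the printed strand. Among 32851 promoters of 27025 genes, 50.5% held AAACA at least once and 22.0% held it at least as often as Igfbp1, while 7.1% held GTTAAT. The second AAACA lies in CAAAACAAACTTATTTTG, a run of 18 bases from 108 to 91 bases before the start. This run was found in 1 of the 32851 promoters, that of Igfbp1. It was copied from that promoter and sought letter for letter, and so long a run seldom recurs, so this count shows no specificity. The run matches its own reverse complement at 14 of 18 positions. In rat and human IGFBP1 such a near-palindrome is known as the insulin response element, to which FOXO1 binds. The Igfbp6 promoter held 1 AAACA, written TGTTT in the printed strand, and no GTTAAT. All 9 genes matched a RefSeq promoter, 15 promoters in all, of which 7 promoters of 5 genes held AAACA and 1 promoter held GTTAAT. These matches describe letters in a window and are not measured binding sites.

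Igfbp1 was the member farthest from the pool. With Eps8KO RNA in Cy5, its log2 ratio was -0.62 in mouse 1, -1.05 in mouse 2, -0.56 in mouse 3 and -1.65 in mouse 4. With Eps8KO RNA in Cy3, it was -0.90, -1.40, -1.36 and -2.12 in the same mice. It lay below 0 on 8 of 8 arrays, and mouse 4 was the lowest in both orientations. Among 11727 features with values on all arrays, 0.571% lay below 0 on every array, and Igfbp1 was the only member to do so.

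**Figure D1:**
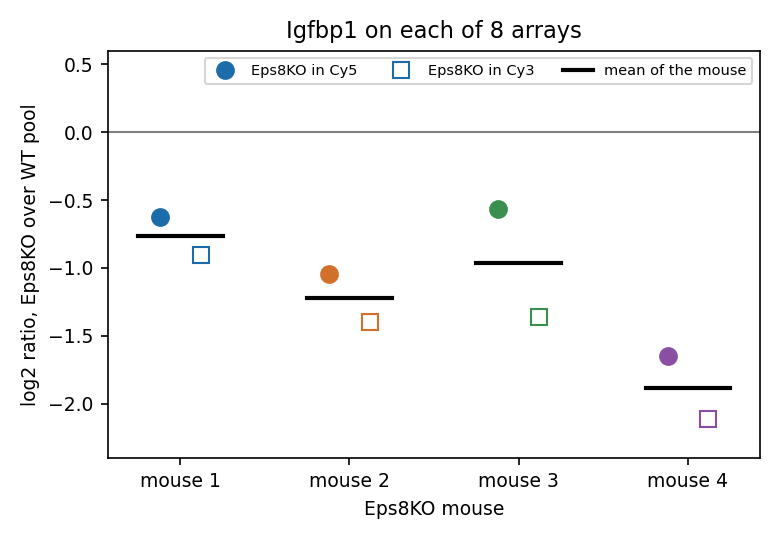
Log2 ratio of Igfbp1, Eps8KO over the WT pool, on each of 8 arrays, with filled circles where the Eps8KO RNA carried Cy5, open squares where it carried Cy3 and a bar for the mean of each mouse. All points lie below 0, from -0.56 to -2.12, and the Cy3 array is the lower one in each mouse.

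The mouse means of Igfbp1 were -0.77, -1.22, -0.96 and -1.88. They averaged -1.21 ± 0.49 (SD, n = 4 mice), or 43.3% of the WT pool. If the ratios ran the other way, it would be 2.31-fold the pool. The 95% interval of limma ran from -1.81 to -0.61. The unadjusted p of limma was 0.00425, and 85 of 15455 features (0.55%) had a smaller p. After Benjamini-Hochberg adjustment over these 15455 features the p of limma was 0.75, so Igfbp1 did not pass. The exact sign-flip permutation test over 4 mice gave p = 0.125 (two-sided), the smallest value that 4 mice allow.

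Fitted on 8 arrays with a dye term and the mouse as a random block, Igfbp1 fell by 1.21 ± 0.17 (SE) with an adjusted p of 0.0373 in limma. In that fit, 0.256% of 11727 features were called lower and 0.0426% higher, and Igfbp1 was the only one called of 8 members fitted. The correlation between arrays of a mouse, fitted as 1 value over all features, was -0.00244, so the fit treated the 2 arrays of a mouse nearly as separate samples. For Igfbp1 they were not: mouse 4 was the lowest and mouse 2 the next lowest in both orientations. The call thus rests on 8 arrays of 4 mice counted as if nearly independent, and the test on 4 mice did not make it (adjusted p = 0.75 in limma).

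In the test on 4 mice, 3.09% of features were lower and 2.15% were higher at an unadjusted p under 0.05. Of the 9 members, 1 was lower (Igfbp1) and 1 higher (Igfbp6) at this threshold. Igfbp1 was the only member also past 1.6-fold, which 1.57% of features passed on the lower side. No feature of the array passed an adjusted p of 0.05 in limma, where the smallest was 0.119 and 811 features had an unadjusted p under 0.05. The median log2 ratio of the 9 members was 0.02, the same as over all features tested, with 5 members above 0 and 4 below.

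**Figure D2:**
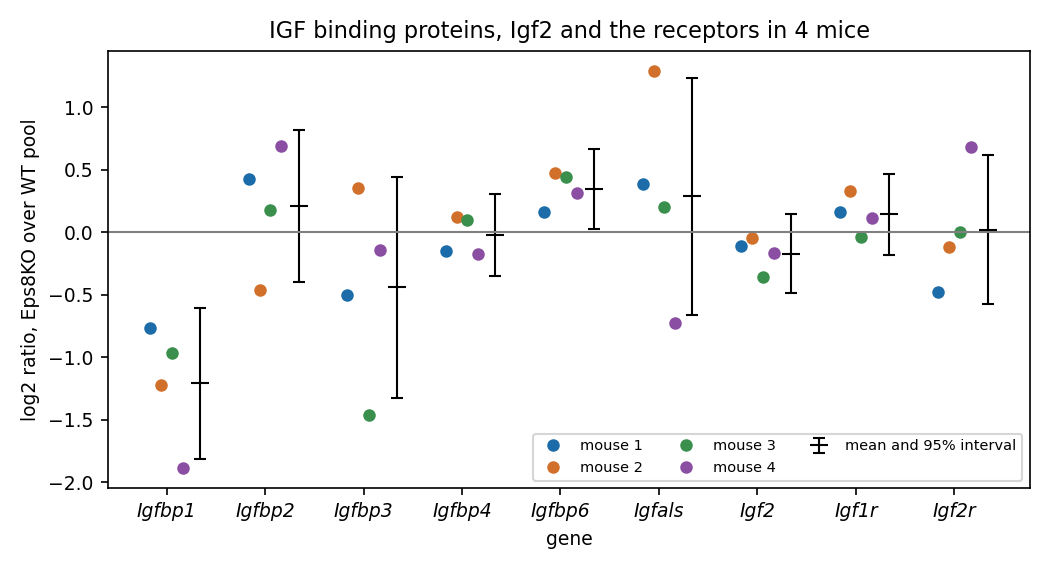
Log2 ratio of Eps8KO over the WT pool for the 9 genes, with a coloured point for each of 4 mice and the mean with its 95% limma interval in black. Only the intervals of Igfbp1 (-1.81 to -0.61) and Igfbp6 (0.03 to 0.66) leave out 0.

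Igfbp6 encodes a binding protein that prefers IGF2 to IGF1. Its log2 ratio was 0.16, 0.47, 0.44 and 0.31 in mice 1 to 4, with all 4 mice above the pool and a mean of 0.35 ± 0.14 (SD), or 1.27-fold. The unadjusted p of limma was 0.0384 and the adjusted p was 0.906, and the exact sign-flip permutation test gave 0.125. With Eps8KO RNA in Cy5 the 4 arrays read 0.26, -0.13, -0.02 and 0.53. With Eps8KO RNA in Cy3 they read 0.07, 1.06, 0.89 and 0.10. In mice 2, 3 and 4 the arrays of both orientations differed by more than the whole range of the mouse means, and 6 of 8 arrays lay above 0. The dye-term fit gave an adjusted p of 0.753 in limma. The promoter of Igfbp6, like every other promoter searched, lacked the 18-base run of the Igfbp1 promoter.

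Igfbp2, whose product is another binding protein secreted by the liver, had log2 ratios of 0.43, -0.47, 0.18 and 0.69. Mouse 2 lay below the pool and the other 3 mice above it. The mean was 0.21 ± 0.49 (SD, n = 4), with a 95% interval from -0.40 to 0.81. Its adjusted p in limma was 0.908.

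Igfbp3 encodes the main carrier of IGF in blood and is the next protein-coding gene to Igfbp1 on chromosome 11. Its mouse means were -0.505, 0.35, -1.46 and -0.14, and they averaged -0.44 ± 0.77 (SD, n = 4; 95% interval -1.32 to 0.44). The adjusted p in limma was 0.906. The low mean of mouse 3 came from 2 arrays that read -4.55 and 1.63. This range over single arrays was the widest among the members.

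Igfbp4, whose product binds both IGFs and is cleaved by the protease PAPP-A, lay at -0.15, 0.12, 0.10 and -0.17. The mean was -0.03 ± 0.16 (SD, n = 4; 95% interval -0.35 to 0.30) and the adjusted p in limma was 0.976. The spot was brighter in Cy5 on all 8 arrays, with deposited ratios from 0.412 to 1.029 whichever RNA carried the dye.

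Igfals had values on 7 of 8 arrays. It lay at 0.385, 1.29, 0.20 and -0.73 in mice 1 to 4, and the value of mouse 2 comes from its Cy3 array alone. The mean was 0.29 ± 0.83 (SD, n = 4; 95% interval -0.66 to 1.23), with an adjusted p of 0.912 in limma. The 4 mice covered both sides of the pool, so neither direction was shown for the acid labile subunit.

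The only ligand measured was Igf2, a fetal growth factor whose expression in rodent liver is known to drop after birth. All 4 mice lay below the pool, at -0.11, -0.05, -0.36 and -0.17. The mean was -0.17 ± 0.13 (SD, n = 4; 95% interval -0.485 to 0.14), and the adjusted p in limma was 0.906. The exact permutation p was 0.125. Of all features, 7.07% were lower and 7.54% were higher in all 4 mice, against 3 of 9 members with 1 sign in all mice (Igfbp1 and Igf2 lower, Igfbp6 higher). The sign of Igf2 changed with the dye, at -0.75 on the Cy5 arrays and 0.40 on the Cy3 arrays.

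Igf1r, the receptor that signals for both IGFs, had 4 named probes. Its gene means were 0.16, 0.33, -0.04 and 0.11 in mice 1 to 4. They averaged 0.14 ± 0.15 (SD, n = 4; 95% interval -0.18 to 0.47), with an adjusted p of 0.906 in limma and an exact permutation p of 0.25. With both orientations weighted equally, in the dye-term fit, the ratio was 0.03 (adjusted p = 0.969 in limma). The intervals of Igf1r and Igfbp1 did not overlap.

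The 4 probes of Igf1r did not agree. Probe 9554, the steadiest, averaged 0.05 ± 0.12 (SD, n = 4 mice), and its arrays ran from -0.39 to 0.25. Probe 11688 averaged 0.21 ± 0.61 and probe 620 averaged -0.16 ± 0.74, with mice on both sides of 0. Probe 17717 averaged 0.46 ± 0.36, with all 4 mice above 0. Its unadjusted p in limma was 0.0557 with 1 feature per probe, and its adjusted p was 0.905. Probes 620 and 17717 each had 7 arrays: mouse 4 of probe 620 and mouse 2 of probe 17717 were read in Cy3 alone. The 2 probes with all arrays gave 0.13 ± 0.32 together.

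**Figure D3:**
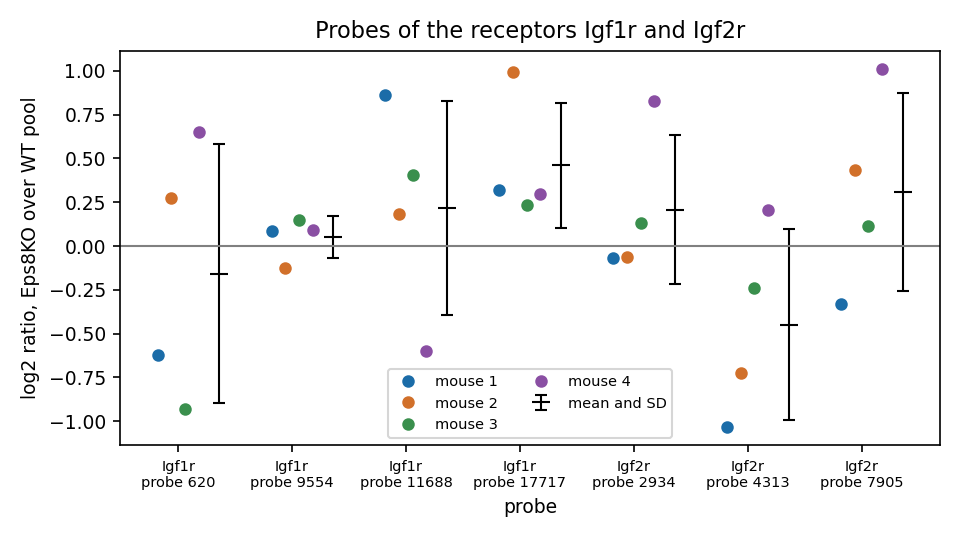
Log2 ratio of Eps8KO over the WT pool for 4 probes of Igf1r and 3 of Igf2r, with a point per mouse and the mean with its SD in black. Probe means of Igf1r run from -0.16 to 0.46 and those of Igf2r from -0.45 to 0.31, and probe 9554 has the narrowest spread.

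Igf2r, the clearance receptor for IGF2, had 3 named probes and gene means of -0.48, -0.12, 0.0003 and 0.68. The mean was 0.02 ± 0.48 (SD, n = 4; 95% interval -0.58 to 0.62), with an adjusted p of 0.991 in limma. Probe 2934 averaged 0.21 ± 0.42 and probe 7905 averaged 0.31 ± 0.57. Probe 4313, with 6 arrays, averaged -0.45 ± 0.54. Mouse 4 was the highest on each of the 3 probes, while it was the lowest mouse of Igfbp1.

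Several members changed sign with the dye of the Eps8KO RNA. The difference between Cy5 and Cy3 arrays of a mouse was -1.62 ± 0.77 for Igf1r, 1.47 ± 0.25 for Igfbp4 and -1.15 ± 0.15 for Igf2 (SD, n = 4 mice each). It had 1 sign in all 4 mice for each of these genes, as it did for Igfbp1 at 0.47 ± 0.23 (exact permutation p = 0.125 for each, the smallest possible). For Igfbp4, Igf2 and Igf1r the arrays of both orientations lay on opposite sides of 0 without overlap, and their small means are differences of larger values of opposite sign. The mean over both orientations cancels a constant dye effect of a spot where both arrays of a mouse were read, which is not so for 2 probes of Igf1r. For Igfbp1 both orientations lay below 0, at -0.97 in Cy5 and -1.45 in Cy3.

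**Figure D4:**
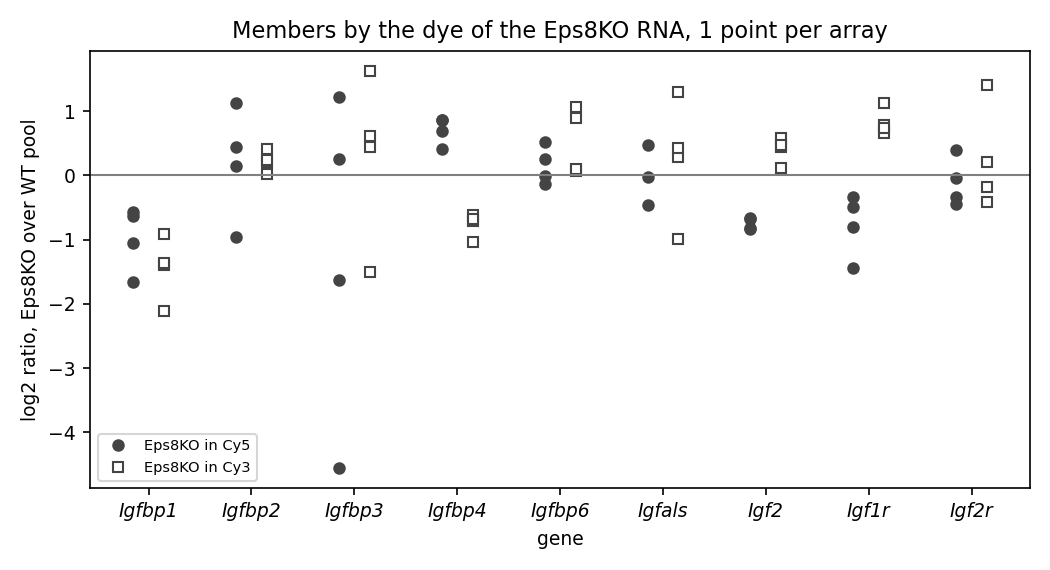
Log2 ratio of Eps8KO over the WT pool on each array for the 9 genes, with filled circles where the Eps8KO RNA carried Cy5 and open squares where it carried Cy3. Igfbp1 lies below 0 in both orientations, while Igf2 and Igf1r lie below 0 in Cy5 and above 0 in Cy3, and Igfbp4 the other way round.

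The difference of Igfbp1 from the other members was taken within each mouse. Igf1r, Igf2r and Igfals lack an array in some mice. Igfbp1 minus Igf1r was -0.93, -1.55, -0.93 and -1.99 in mice 1 to 4, with a mean of -1.35 ± 0.52 (SD). Igfbp1 was the lower gene in all 4 mice against Igfbp2, Igfbp4, Igfbp6, Igfals, Igf2, Igf1r and Igf2r, with mean differences from -1.55 to -1.04. Each of these gave an exact permutation p of 0.125, the smallest possible, so none of the 8 pairs could pass 0.05. Against Igfbp3, the difference was -0.77 ± 1.07, Igfbp1 was lower in 3 of 4 mice and the exact permutation p was 0.375. Between Igfbp1 and Igf1r, the difference was -0.20 on the Cy5 arrays (exact permutation p = 0.375) and -2.27 on the Cy3 arrays, so its size depended on the orientation.

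The genes nearest to Igfbp1 were sought among 6564 genes on all 8 arrays, by the root mean square difference of the 8 log2 ratios. They were Eif1a, a translation initiation factor (0.42), Fam25c (0.48), the interferon-inducible Ifitm1 (0.51), the magnesium transporter Slc41a2 (0.58) and Wfdc21 (0.59). Their own log2 ratios lay between -1.19 and -0.85, and all but Ifitm1 were below 0 on 8 of 8 arrays. They were picked for closeness to Igfbp1, so these low ratios follow from the choice and lend Igfbp1 no support. The dye-term fit called Eif1a (adjusted p = 0.00363 in limma) and Slc41a2 (0.00437) lower, which follows in part from the same choice. The nearest genes to Igf1r were Plcg1 (0.19), Alox12e (0.26), Nrf1 (0.27), Pacsin2 (0.28) and Tab3 (0.30). Each of these was, like Igf1r, below 0 on average in Cy5 and above 0 in Cy3, with an adjusted p from 0.906 to 0.993 in limma. That dye pattern too follows from how these genes were picked.

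The other genes of the pathway were read in 10 further lists, in which 123 other genes were tested. At an unadjusted p under 0.05, 5 of these genes were higher (4.07%, against 2.15% of all features) and 4 lower (3.25%, against 3.09%). Their median log2 ratio was -0.04. None passed the adjusted threshold in the test on 4 mice (limma), where 9 genes had an unadjusted p under 0.05, and 1 of 103 passed it in the dye-term fit.

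Among 15 IGFBP-related proteins and IGFBP proteases (median -0.15), 1 was higher and none lower at an unadjusted p under 0.05. This was Stc2, stanniocalcin 2, an inhibitor of the protease PAPP-A, at 1.39 ± 1.21 from 5 arrays. Most mice were read for Stc2 in Cy3 alone, so a dye effect does not cancel there, and its Cy3 arrays averaged 2.03. The matricellular Ccn2 lay at -0.88 ± 0.81 and Kazald1 at -0.30 ± 0.16, each below 0 in 4 of 4 mice without passing. Esm1 lay at -0.78 ± 1.22. Of 7 genes of the growth hormone axis (median -0.04), 1 was lower. Stat5b, the factor through which growth hormone drives hepatic Igf1 and Igfals, was at -1.48 ± 0.81 with an adjusted p of 0.838 in limma, from 5 arrays. Stat5a lay at -0.04, Jak2 at -0.21, Stat3 at 0.16, the inhibitor Socs1 at 0.53 and Socs2 at -0.05, and none of them passed.

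None of 29 genes of insulin and IGF receptor signalling passed the unadjusted threshold, and their median was 0.02. The docking protein Irs1 lay at -0.27 ± 0.19 and the kinase Map2k1 at -0.30 ± 0.26, both below 0 in 4 of 4 mice. The mTORC1 subunit Rptor lay at -0.52 ± 0.40 and the phosphatase Ptpn11 at -0.51 ± 0.56, each below 0 in 3 of 4 mice. The insulin receptor gene Insr was at 0.10 ± 0.11. Of 14 genes of Igf1r processing, trafficking and turnover (median -0.02), 1 was higher and 1 lower. Arrb1, a beta-arrestin that takes part in receptor turnover, was at 0.75 ± 0.37 (adjusted p = 0.848 in limma). It had 7 arrays, so a mouse was read in Cy3 alone, and its Cy3 arrays averaged 1.71. The clathrin heavy chain Cltc was at -0.31 ± 0.06, with 0.01 on the Cy5 arrays and -0.64 on the Cy3 arrays. The endosomal Rab7 lay at 0.27 ± 0.11 and Rab11a at 1.26 ± 1.62.

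**Figure D5:**
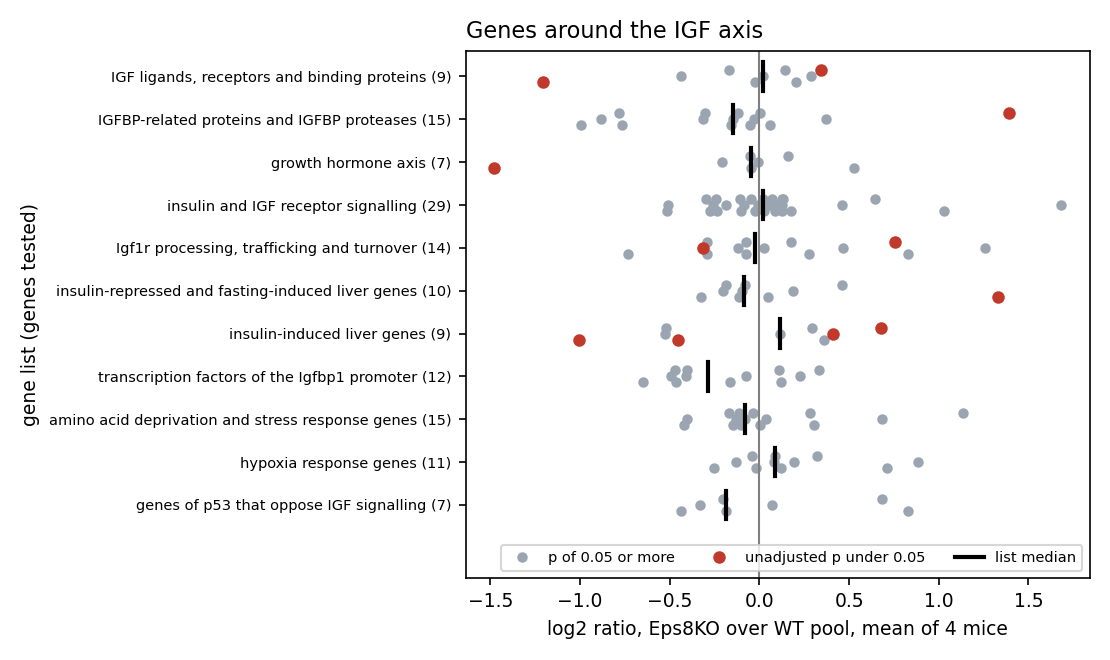
Mean log2 ratio over 4 mice, Eps8KO over the WT pool, for the genes of 11 lists, with red points for genes at an unadjusted p under 0.05, grey points for the others and a black bar for the list median. Igfbp1, at -1.21, is the lowest of the 9 IGF genes, and the list medians run from -0.29 to 0.11. These medians join both orientations, and several differ between them.

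Insulin acts on Igfbp1 together with other liver genes, which were read as 2 lists. Of 10 insulin-repressed and fasting-induced genes (median -0.09), 1 was higher and none lower. Cyp4a14, a fatty acid omega-hydroxylase, lay at 1.24, 1.27, 1.31 and 1.49 in the 4 mice, well apart from the pool, and rose in the dye-term fit (adjusted p = 0.00666 in limma, against 0.245 on 4 mice). Tat, a fasting-induced transaminase, lay at -0.19, Angptl4 at -0.12 and Ppargc1a at 0.46, and none of them passed. Each changed sign with the dye, at 0.60, 0.52 and -0.48 in Cy5 and -0.98, -0.75 and 1.40 in Cy3. Igfbp1 and Cyp4a14, both known to be induced by fasting, lay on opposite sides of the pool in all 4 mice. Of 9 insulin-induced genes (median 0.11), 2 were higher and 2 lower. These were the stearoyl-CoA desaturase Scd1 at 0.68 ± 0.45, Mid1ip1 at 0.41 ± 0.16, the elongase Elovl6 at -0.46 ± 0.18 and the acyltransferase Gpam at -1.01 ± 0.48. On the Cy5 arrays Scd1, Mid1ip1 and Gpam lay at 1.23, 0.78 and -1.90, against 0.12, 0.04 and -0.11 on the Cy3 arrays. Elovl6 lay at -0.54 in Cy5 and -0.33 in Cy3.

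Of 12 transcription factors known to act on the Igfbp1 promoter (median -0.29), none passed the unadjusted threshold. Cebpa lay at 0.33 ± 0.27, Atf4 at -0.41 ± 0.37, the bile acid receptor Nr1h4 at -0.41 ± 0.56 and Arnt at -0.47 ± 0.73. None of 15 amino acid deprivation and stress genes (median -0.08), 11 hypoxia genes (median 0.09) or 7 genes of p53 (median -0.19) passed it either. Among the stress genes, Cth lay at 0.30 ± 0.19, Nupr1 at 0.28 ± 0.39 and Sesn2, which also belongs to the p53 list, at 0.68 ± 0.71. Among the hypoxia genes, Pdk1 lay at 0.32 ± 0.33, Egln3 at 0.19 ± 0.22, Hmox1 at -0.13 ± 0.11 and Bnip3 at 0.71 ± 2.05. Among the p53 genes, Ccng1 lay at -0.33 ± 0.37, Btg2 at -0.19 ± 0.21 and Mdm2 at 0.83 ± 1.498. Their place in these lists rests on the same unsettled naming as that of Igfbp1.

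Markers of liver cell types were read beside Igfbp1, a hepatocyte product. Of 6 hepatocyte markers (median 0.19), Apoa1 was higher at 0.34 ± 0.14 and the fibrinogen chain Fgb lower at -1.34 ± 0.20, while Alb lay at 0.30 ± 0.32 and Ttr at 0.18 ± 0.21. Fgb was below 0 in both orientations, at -0.52 in Cy5 and -2.17 in Cy3. Apoa1 changed sign with the dye, at 1.32 in Cy5 and -0.64 in Cy3, as did the median of the 6 markers, at 0.61 and -0.61. The median ratio of these markers was 0.09, 0.33, 0.25 and -0.13 in mice 1 to 4. It was lowest in mouse 4, which had the lowest Igfbp1, and highest in mouse 2, which had the next lowest Igfbp1. Alb itself was highest in mouse 4, at 0.76. Of 4 cholangiocyte markers (median -0.05), Krt7 was lower at -1.51 ± 0.40, from 4 arrays. None of 5 endothelial (median -0.12), 4 Kupffer cell (-0.03), 6 stellate cell (-0.11), 5 lymphocyte (0.02) and 3 red blood cell (0.10) markers passed the unadjusted threshold. The part of cell composition in the ratio of Igfbp1 was not tested.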

How the data were processed

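Total liver RNA was reverse transcribed and labelled with Cy3 or Cy5 per the labels. The deposited values are log2 ratios of 2 dyes, 1 column per array, and all 8 value columns were used, with 0 left out. The authors describe total intensity normalisation in MIDAS of the TM4 software to a mean log2 ratio of 0, a background filter and a flip dye check. The deposited array means lay between -0.392 and -0.181, so whether the deposited values followed all these steps is not known. No scanner intensities were analysed here, so signal over background is unknown. Precision is limited by the number of mice, 4, and by the use of 1 WT pool. Before turning, r between the Cy5 and Cy3 arrays of 1 mouse was 0.0684 to 0.14, where opposite signs of a shared pattern would give values below 0, so the turning has only the dye labels as its basis.

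Signs were turned where Eps8KO RNA carried Cy3, and values were averaged within a mouse and then over the probes of a gene. The platform's table gave 12398 probes 1 symbol each, all matched by gene ID to RefSeq, and 12367 rows were named. Features measured in every mouse numbered 15455, and their means were tested against 0 in limma 3.58.1 (lmFit, eBayes) under R 4.3.3, two-sided with Benjamini-Hochberg adjustment. SAM, named in the methods without settings, was not run. SciPy 1.17.1, pandas 2.3.3, NumPy 2.4.6 and Matplotlib 3.10.9 under Python 3.11.15 served for the rest. Tested on simulated data of 15455 features, the test on 4 mice called 15% of features with a true log2 change of 1 at an adjusted p under 0.05, and 50% where that change was 2.

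The members and lists were chosen with earlier results of these data known. By rule, the named genes are Igfbp1, Igf1r, from each list the 4 with the lowest p, any list gene at an adjusted p under 0.05 and the 5 genes nearest to Igfbp1 and to Igf1r. The other members are all described, and Insr, Stat5a, Socs2 and the cell type markers were named outside this rule, after their values were seen. Alternatives were other centring, 1 orientation, 8 arrays as replicates, a dye term with the mouse as a random block, 1 feature per probe, other rules for missing, limit or discordant values, other moderation, names without the shift and each mouse left out.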

Additional observations from a re-analysis of the deposited data

Results flagged for a closer look

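Of 57 named genes, 2 had a mouse that stood apart from the other 3, and chance alone gives about 1 in 20. Ccn2, which encodes a matricellular protein, was at -2.10 in mouse 1, against -0.51 to -0.42 in the other mice. Rab11a, a GTPase of recycling endosomes, was at 3.66 in mouse 3, against 0.14 to 0.70 in the others, and had values on 5 arrays. No mouse stood apart in this way for any of the 9 IGF genes.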

How the results depend on the processing

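The low ratio of Igfbp1 kept its direction in 16 of 17 alternatives and turned to 0.30 with names put on without the shift. Igfbp1 has 1 spot, below 0 on 8 of 8 arrays, so leaving out mice or an orientation could not turn its sign. Several other alternatives changed only the test or other features and left the ratio at -1.21. That count therefore lends the direction no support of its own. Igfbp1 passed the adjusted threshold only with a dye term and the mouse as a random block (-1.21, adjusted p = 0.0373 in limma). There the arrays of a mouse counted nearly as separate samples. In the other alternatives the adjusted p ran up to 0.927. The unadjusted p, 0.00425 in the main limma fit, was 0.0514 in limma with a robust prior and trend. A one-sample t test without moderation gave an unadjusted p of 0.0158. With each mouse left out in turn, the ratio of Igfbp1 ran from -1.36 to -0.98, that of Igf1r from 0.08 to 0.20 and the difference between them from -1.49 to -1.14. Igfbp2 ran from 0.05 (without mouse 4) to 0.43 (without mouse 2), Igfbp3 from -0.70 to -0.10 (without mouse 3) and Igf2 from -0.21 to -0.11 (without mouse 3). Igf1r was 0.03 with the dye term and with 8 arrays as replicates. No member other than Igfbp1 passed the adjusted threshold under any alternative run.

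With Cy5 arrays alone, the sign turned for Igfbp4 (0.71), Igf1r (-0.77) and Igf2r (-0.11), and with Cy3 arrays alone for Igfbp3 (0.30) and Igf2 (0.40). Medians of several lists moved with the orientation as well. That of the IGF genes was -0.43 in Cy5 and 0.25 in Cy3, that of the p53 genes -0.63 and 0.44, and that of the insulin-induced genes 0.41 and -0.11. The median of the transcription factors stayed near its value, at -0.25 and -0.23. Igf1r turned to -0.16 on probe 620, and Igf2r to -0.45 on probe 4313 and to -0.003 with array medians set to 0. Leaving out a mouse turned Igfbp4 (range -0.0745 to 0.0235, above 0 without mouse 1 or without mouse 4), Igfals (-0.0475 to 0.62, below 0 without mouse 2) and Igf2r (-0.20 to 0.19, below 0 without mouse 4).

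The count of features past the adjusted threshold, 0 on 4 mice, was 11 with Cy3 arrays, 11 with 8 arrays as replicates, 35 with the dye term and 12 with spots on all 8 arrays. The count past 1.6-fold and an unadjusted p of 0.05, 407 on 4 mice, was 1572 with Cy5 arrays, 1953 with Cy3 arrays, 141 with 8 arrays as replicates, 207 with the dye term, 207 with spots on all 8 arrays, 61 with the flip dye filter, 214 without moderation and 35 with a robust prior and trend. These counts come from unlike numbers of features and are not directly comparable. Tested were 15455 features on 4 mice, 13145 with Cy5 arrays, 13051 with Cy3 arrays and 11727 with 8 arrays as replicates or the dye term. With spots on all 8 arrays there were 11602, and with the flip dye filter 5351. The count past 1.6-fold and an unadjusted p of 0.05 ran from 473 to 553 with each mouse left out, where the adjusted count was 0 throughout. The causes of these shifts were not tested. Eps8KO mice could not be paired with WT mice, because the WT RNA was a pool. Pairing within a mouse was used for the dye differences and for the differences between members.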
